A study of Arabidopsis thaliana with 12 samples.

Results

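Salicylic acid is the plant hormone of defence against pathogens that feed on living tissue, and 10 genes that make it or switch its synthesis on were followed here, out of 26093 genes in the deposited expression table. They were taken by locus identifier for their known roles, not by a threshold on expression. Earlier results of these data were known when these genes and the further lists below were chosen. Counts of called genes set beside the share of all tested genes are therefore descriptions, not a test of excess. The set holds 5 genes of the isochorismate pathway, ICS1 (AT1G74710), ICS2 (AT1G18870), EDS5 (AT4G39030), PBS3 (AT5G13320) and EPS1 (AT5G67160). It also holds 2 transcription factor genes, CBP60G (AT5G26920) and SARD1 (AT1G73805), and 3 genes of the EDS1 node, EDS1 (AT3G48090), PAD4 (AT3G52430) and SAG101 (AT5G14930). All 10 were in the table and all 10 passed the expression filter, at least 1 FPKM (fragments scaled to transcript length and library depth) in at least 3 libraries. PBS3 passed it through the atg2-4 and lon2-8 atg2-4 libraries alone, so its difference from the other genotypes was partly set by the filter and is given below as a description.

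Poly-A RNA came from whole Arabidopsis thaliana seedlings of the Col-0 ecotype, grown in continuous light in plant nutrient medium. The genotypes were the lon2-8 atg2-4 double mutant, the atg2-4 single mutant, the lon2-8 single mutant and wild-type Col-0, with 3 libraries of each, described by the submitters as biological replicates. ATG2 acts in autophagy, the delivery of cell contents to the vacuole, and LON2 is a protease of the peroxisome. The nature of either allele is not given in the labels, and the seedling age is stated as 6 days in the design text and as 8 days in the growth protocol. Sample titles and genotype tags name opposite single mutants for 6 samples, so libraries were grouped by the genotype in their column names. As a check on those names, LON2 averaged 4.78 FPKM in lon2-8 atg2-4, 22.3 FPKM in atg2-4, 11.6 FPKM in lon2-8 and 25.9 FPKM in Col-0. ATG2 averaged 6.59, 6.31, 7.58 and 7.71 FPKM in the same genotypes, a small difference that checks the atg2-4 label only weakly.

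In plants, isochorismate synthase turns chorismate into isochorismate inside the plastid, EDS5 exports it, PBS3 joins it to glutamate, and EPS1 speeds the breakdown of that conjugate to salicylic acid. CBP60G and SARD1 are related transcription factors that bind and activate ICS1 and other defence genes. EDS1 forms separate complexes with PAD4 and with SAG101, which relay signals from intracellular immune receptors and, through PAD4, feed back on ICS1. Raised salicylic acid and early senescence are known features of Arabidopsis autophagy mutants, but neither was measured in these seedlings.

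The upstream sequences of ICS1, ICS2 and SARD1 are shown because ICS1 and ICS2 encode the same enzyme activity and moved in opposite directions, and because SARD1 was the one gene whose response to lon2-8 passed the test for a difference between backgrounds. Each line gives the 250 bases before the annotated gene start, on the strand of the gene, from RefSeq assembly TAIR10.1, on which ICS1 lies at chr1:28070045-28070294 (plus strand), ICS2 at chr1:6515123-6515372 (plus strand) and SARD1 at chr1:27749249-27749498 (minus strand). The expression table carries no coordinates, and no source used here names the build of its authors. Capitals mark 3 short motifs on either strand: TTGAC, the core of the W-box bound by WRKY factors, TGACG, the core bound by TGA factors, and GAAATTT, the core bound by CBP60G and SARD1.
ICS1: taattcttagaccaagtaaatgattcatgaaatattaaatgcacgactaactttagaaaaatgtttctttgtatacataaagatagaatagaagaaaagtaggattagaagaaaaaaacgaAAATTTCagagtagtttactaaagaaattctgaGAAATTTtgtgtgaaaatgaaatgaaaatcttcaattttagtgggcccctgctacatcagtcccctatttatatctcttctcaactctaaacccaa
ICS2: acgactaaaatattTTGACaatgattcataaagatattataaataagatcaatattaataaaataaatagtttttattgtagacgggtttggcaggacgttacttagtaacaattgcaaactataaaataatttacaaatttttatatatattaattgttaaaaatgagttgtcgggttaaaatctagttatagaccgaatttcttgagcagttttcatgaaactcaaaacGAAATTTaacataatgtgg
SARD1: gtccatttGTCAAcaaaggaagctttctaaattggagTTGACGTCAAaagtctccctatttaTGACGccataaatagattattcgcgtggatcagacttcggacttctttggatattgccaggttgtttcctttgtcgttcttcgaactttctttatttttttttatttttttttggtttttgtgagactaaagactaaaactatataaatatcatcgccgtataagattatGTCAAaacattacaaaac

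The ICS1 window held 2 GAAATTT cores and no match to the other motifs. In ICS2 there was 1 GAAATTT core and 1 TTGAC core. The SARD1 window held 4 TTGAC cores and 3 TGACG cores, 2 of which overlap TTGAC cores. Over 27443 protein-coding genes, 44.9% of such windows held TTGAC, 18.6% held TGACG and 12.5% held GAAATTT. Among the 10 genes, 6 held TTGAC, 1 held TGACG and 2 held GAAATTT. A match is a description of these letters and does not show that a factor binds there.

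Carrying atg2-4 was accompanied by higher transcript levels of 7 of the 10 genes, in Col-0 and in lon2-8 alike: ICS1, PBS3, CBP60G, SARD1, EDS1, PAD4 and SAG101. ICS2 was lower, and EDS5 and EPS1 did not pass the test. Of all tested genes, 48.5% were called in atg2-4 against Col-0 and 49.9% in lon2-8 atg2-4 against lon2-8. With lon2-8 alone 3 genes were called, all lower, a share near the 23.1% of all tested genes called there. With lon2-8 added to atg2-4 4 were called, all lower, where 8.88% of all tested genes were called, and ICS1 and PBS3 did not pass. Each comparison was tested with limma on log2(FPKM + 1), a scale that understates the change of genes near 0, with p adjusted over the 20662 genes tested and a threshold of 0.05.

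**Figure D1:**
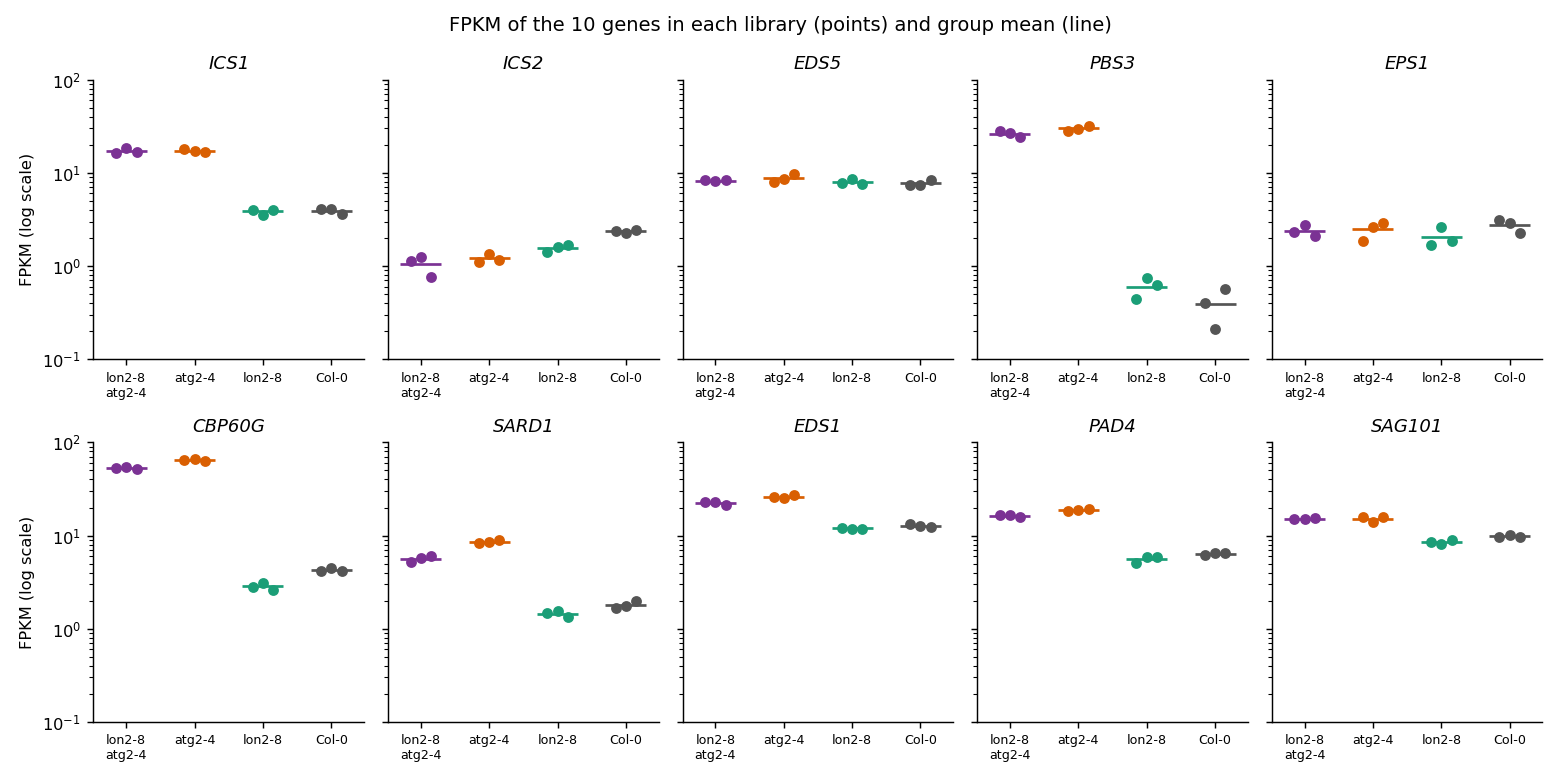
FPKM of each of the 10 genes in every library, on a log axis, with points for libraries and a line at the mean of each genotype. For ICS1, PBS3, CBP60G, SARD1, EDS1, PAD4 and SAG101, all 6 libraries that carry atg2-4 lie above all 6 that do not.

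ICS1, the isochorismate synthase that makes most pathogen-induced salicylic acid, had 16.2, 18.6 and 16.8 FPKM in the lon2-8 atg2-4 libraries and 17.9, 17.1 and 16.9 FPKM in the atg2-4 libraries. It had 3.97, 3.57 and 4.02 FPKM in lon2-8 and 4.08, 4.07 and 3.62 FPKM in Col-0. The libraries thus fell into a high pair and a low pair of genotypes, with overlap inside each pair and none between them. Mean FPKM was 4.41-fold higher in atg2-4 than in Col-0 and 4.45-fold higher in lon2-8 atg2-4 than in lon2-8. The log2 fold changes were 1.90 ± 0.063 (SE, limma adjusted p = 5.99e-11) in Col-0 and 1.90 ± 0.063 (adjusted p = 5.66e-11) in lon2-8. For lon2-8 the interval of the change was -0.16 to 0.12 on the log2 scale in Col-0 and -0.15 to 0.12 in atg2-4 (95%).

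ICS2, the second isochorismate synthase gene and a minor source of salicylic acid, went the other way. It had 1.13, 1.24 and 0.769 FPKM in lon2-8 atg2-4, 1.11, 1.34 and 1.16 FPKM in atg2-4, 1.42, 1.59 and 1.68 FPKM in lon2-8 and 2.37, 2.26 and 2.43 FPKM in Col-0. All 9 mutant libraries lay below every Col-0 library, and the lon2-8 libraries lay above those carrying atg2-4. Its log2 fold change was -0.61 ± 0.096 (SE, adjusted p = 0.000181) in atg2-4 against Col-0 and -0.39 ± 0.096 (adjusted p = 0.0111) in lon2-8 against Col-0. In lon2-8 atg2-4 against lon2-8 it was -0.33 ± 0.096 (adjusted p = 0.0115). Leaving out the third lon2-8 atg2-4 library ended this last call (adjusted p = 0.0534). The gene AT1G18871 overlaps ICS2.

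FPKM is a level per transcript length, so both synthase genes can be set side by side. ICS1 made up 93.5%, 93.8% and 95.6% of their summed FPKM in the lon2-8 atg2-4 libraries and 94.2%, 92.7% and 93.6% in the atg2-4 libraries. In lon2-8 the ICS1 share was 73.6%, 69.1% and 70.6%, and in Col-0 it was 63.3%, 64.3% and 59.9%. The ratio of ICS1 to ICS2 averaged 17.0 ± 4.1 in lon2-8 atg2-4, 14.5 ± 1.7 in atg2-4, 2.48 ± 0.29 in lon2-8 and 1.67 ± 0.16 in Col-0 (SD, n = 3 each). The ratio was not tested. Its step between lon2-8 and Col-0 came with a lower ICS2 level at an ICS1 level that did not pass the test.

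**Figure D2:**
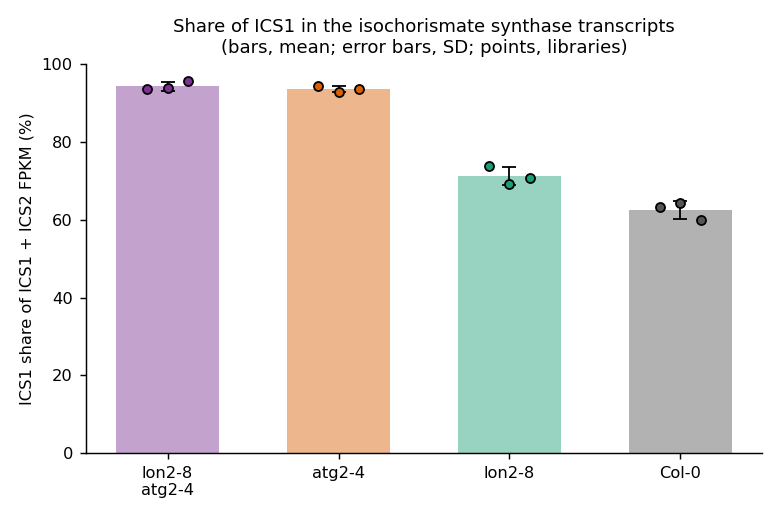
Share of ICS1 in the summed FPKM of ICS1 and ICS2, in percent, with bars at the mean, error bars of 1 SD and points for the 3 libraries of each genotype. Libraries that carry atg2-4 lie between 92.7% and 95.6%, and those that do not lie between 59.9% and 73.6%.

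PBS3, the enzyme that joins glutamate to isochorismate, showed the largest change of the 10 genes. It had 28.0, 27.0 and 24.1 FPKM in lon2-8 atg2-4 and 28.4, 29.5 and 32.0 FPKM in atg2-4. In lon2-8 it had 0.445, 0.738 and 0.618 FPKM and in Col-0 0.396, 0.210 and 0.559 FPKM, which rest on 14 to 49 fragments per library. The 6 libraries carrying atg2-4 were far above the other 6, none of which reached 1 FPKM. The ratio of mean FPKM was 77.2 for atg2-4 over Col-0 and 43.9 for lon2-8 atg2-4 over lon2-8. On the log2(FPKM + 1) scale these changes were 4.49 ± 0.097 and 4.10 ± 0.097 (SE). Both were also called when every gene with a value above 0 was tested, with no filter on level.

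EDS5, the exporter of isochorismate from the plastid, stayed within a narrow range. It had 8.28, 8.11 and 8.30 FPKM in lon2-8 atg2-4, 8.06, 8.66 and 9.79 FPKM in atg2-4, 7.86, 8.52 and 7.59 FPKM in lon2-8 and 7.47, 7.34 and 8.32 FPKM in Col-0. The ranges of the genotypes overlapped. In atg2-4 against Col-0 the log2 fold change was 0.17 (95% interval 0.026 to 0.32, adjusted p = 0.0513), just outside the threshold. It passed without atg2-4 library 1 (adjusted p = 0.0179), without lon2-8 library 2 (0.0495), without Col-0 library 3 (0.0267) and with the count model voom (0.0132). Of 2112 windows of 150 bases in its transcript, 64 (3.03%) are also found in the overlapping gene CFM4, which averaged 35.4, 33.6, 46.5 and 43.1 FPKM in lon2-8 atg2-4, atg2-4, lon2-8 and Col-0.

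EPS1, the last enzyme of the route, was low and variable. It had 2.31, 2.75 and 2.07 FPKM in lon2-8 atg2-4, 1.86, 2.65 and 2.90 FPKM in atg2-4, 1.69, 2.64 and 1.87 FPKM in lon2-8 and 3.14, 2.92 and 2.27 FPKM in Col-0. All 4 ranges overlapped, and no comparison passed the test. The interval of its log2 fold change in atg2-4 against Col-0 ran from -0.44 to 0.18, which is far from the size seen for ICS1 or PBS3. Along the isochorismate route, then, the synthase ICS1 and the glutamate ligase PBS3 were called higher with atg2-4, while the transporter and the last enzyme were not called.

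CBP60G, the calmodulin-binding member of the transcription factor pair, had the highest level of the 10 genes in both genotypes that carry atg2-4. It had 53.4, 54.0 and 51.8 FPKM in lon2-8 atg2-4, 64.7, 65.7 and 63.9 FPKM in atg2-4, 2.82, 3.12 and 2.59 FPKM in lon2-8 and 4.19, 4.53 and 4.17 FPKM in Col-0. No range touched another, so each genotype had a level of its own. Mean FPKM was 15.1-fold higher in atg2-4 than in Col-0 and 18.7-fold higher in lon2-8 atg2-4 than in lon2-8. The log2 fold changes were 3.64 ± 0.051 (SE, adjusted p = 1.05e-14) and 3.82 ± 0.051 (adjusted p = 1.13e-14). With lon2-8 it was lower in both backgrounds, with a log2 fold change of -0.28 ± 0.051 in atg2-4 (adjusted p = 0.00437) and -0.46 ± 0.051 in Col-0 (adjusted p = 2.80e-05).

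SARD1, which acts alongside CBP60G without binding calmodulin, had 5.15, 5.74 and 6.04 FPKM in lon2-8 atg2-4 and 8.24, 8.57 and 8.86 FPKM in atg2-4. It had 1.46, 1.55 and 1.34 FPKM in lon2-8 and 1.66, 1.74 and 1.99 FPKM in Col-0. Again no 2 genotypes overlapped. The effect of atg2-4 was 1.77 ± 0.072 on the log2 scale in Col-0 (SE, adjusted p = 4.09e-10) and 1.44 ± 0.072 in lon2-8 (adjusted p = 3.03e-09). In lon2-8 atg2-4 against atg2-4 it fell by 0.53 ± 0.072 (adjusted p = 0.000769), while in lon2-8 against Col-0 the change was -0.19 (adjusted p = 0.0724). That difference between the backgrounds was -0.33 (95% interval -0.55 to -0.11, adjusted p = 0.0469), and it was not called in 12 of 19 alternative settings, 9 of which left out 1 library.

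Part of the SARD1 transcript is shared with GIP2, which lies on the opposite strand: 269 of 2248 windows of 150 bases (11.97%). No source used here says whether counting used strand, so reads of the shared stretch may have been lost or counted for either gene. GIP2 averaged 4.21 FPKM in lon2-8 atg2-4, 5.72 FPKM in atg2-4, 3.66 FPKM in lon2-8 and 4.16 FPKM in Col-0. Its part in the SARD1 values was not tested.

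EDS1, the shared partner of both immune complexes, had 23.2, 23.0 and 21.4 FPKM in lon2-8 atg2-4 and 25.7, 25.6 and 27.1 FPKM in atg2-4. It had 12.2, 11.9 and 11.7 FPKM in lon2-8 and 13.2, 12.7 and 12.3 FPKM in Col-0. The 4 ranges did not overlap, although lon2-8 and Col-0 nearly met. The change in lon2-8 against Col-0 did not pass the test (log2 fold change -0.088, adjusted p = 0.180). Mean FPKM was 2.05-fold higher in atg2-4 than in Col-0 (log2 fold change 0.98 ± 0.045, SE, adjusted p = 1.40e-09) and 1.89-fold higher in lon2-8 atg2-4 than in lon2-8 (0.87 ± 0.045, adjusted p = 4.37e-09). No 150-base window of EDS1 was shared letter for letter with another gene, and shorter or nearly matching stretches of EDS1 were not examined. Its neighbour AT3G48080 averaged 6.74, 9.33, 2.13 and 2.28 FPKM in lon2-8 atg2-4, atg2-4, lon2-8 and Col-0, with a log2 fold change of 1.66 in atg2-4 against Col-0 (adjusted p = 1.07e-09).

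PAD4, which pairs with EDS1 in the branch that promotes salicylic acid synthesis, had 16.5, 16.7 and 15.7 FPKM in lon2-8 atg2-4 and 18.3, 18.8 and 19.2 FPKM in atg2-4. It had 5.11, 5.91 and 5.88 FPKM in lon2-8 and 6.20, 6.43 and 6.46 FPKM in Col-0, again without overlap. Its change in lon2-8 against Col-0 did not pass the test (log2 fold change -0.15, adjusted p = 0.0559). Its mean was 2.95-fold higher in atg2-4 than in Col-0 (log2 fold change 1.42 ± 0.053, SE, adjusted p = 1.80e-10) and 2.89-fold higher in lon2-8 atg2-4 than in lon2-8 (1.38 ± 0.053, adjusted p = 2.32e-10).

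SAG101, the EDS1 partner of the cell death branch, had 15.1, 15.1 and 15.3 FPKM in lon2-8 atg2-4 and 15.8, 13.8 and 15.7 FPKM in atg2-4. It had 8.49, 8.09 and 8.86 FPKM in lon2-8 and 9.64, 10.2 and 9.59 FPKM in Col-0. Both genotypes with atg2-4 overlapped each other and stood above the other libraries. The rise was the smallest of the 3 node genes, 1.54-fold in atg2-4 against Col-0 (log2 fold change 0.58 ± 0.054, SE, adjusted p = 1.71e-06) and 1.79-fold in lon2-8 atg2-4 against lon2-8 (0.77 ± 0.054, adjusted p = 8.65e-08).

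The order of levels within a genotype was also different. In Col-0 the highest were EDS1 at 12.7 FPKM, SAG101 at 9.81, EDS5 at 7.71 and PAD4 at 6.36 FPKM, and the lowest was PBS3 at 0.388 FPKM. In lon2-8 the same 4 genes led in the same order, with the SAG101 and EDS5 ranges overlapping. In atg2-4 the order was CBP60G at 64.8 FPKM, PBS3 at 30.0, EDS1 at 26.1, PAD4 at 18.8, ICS1 at 17.3 and SAG101 at 15.1 FPKM. EDS5 at 8.84 FPKM and SARD1 at 8.56 FPKM followed and overlapped, ahead of EPS1 at 2.47 and ICS2 at 1.2 FPKM. The double mutant kept that order except that ICS1, at 17.2 FPKM, stood before PAD4, at 16.3 FPKM, with overlapping ranges. PBS3 was the last of the 10 genes without atg2-4 and the second with it.

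In atg2-4 against Col-0, 7 of the 10 genes were called higher and 1 lower, where 48.5% of all tested genes were called, 21.3% higher and 27.2% lower. PBS3, which passed the filter through atg2-4 libraries alone, is 1 of these 7 genes. The 10 genes were chosen with earlier results of these data known, so their count beside that background is a description. The median log2 fold change of the 10 genes was 1.2, beside -0.047 over all tested genes. In lon2-8 atg2-4 against Col-0 the same 7 genes were called higher and ICS2 lower, where 52.0% of all tested genes were called, 22.0% higher and 30.1% lower, and the median was 1.00 beside -0.054. The changes there were 4.31 for PBS3, 3.35 for CBP60G, 1.88 for ICS1, 1.25 for SARD1, 1.23 for PAD4, 0.78 for EDS1, 0.58 for SAG101 and -0.72 for ICS2. Both comparisons use the same Col-0 libraries.

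The comparison of lon2-8 atg2-4 with lon2-8 shares no library with that of atg2-4 with Col-0. There 7 genes were called higher and 1 lower, where 49.9% of all tested genes were called, 25.3% higher and 24.6% lower. They were the 8 genes called in Col-0, each in the same direction. PBS3, 1 of the 7, passed the filter only through libraries that carry atg2-4. Both comparisons use the same estimate of spread for each gene, from 1 fit of all 12 libraries. The median of the 10 genes was 1.12, beside -0.0054 over all tested genes.

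**Figure D3:**
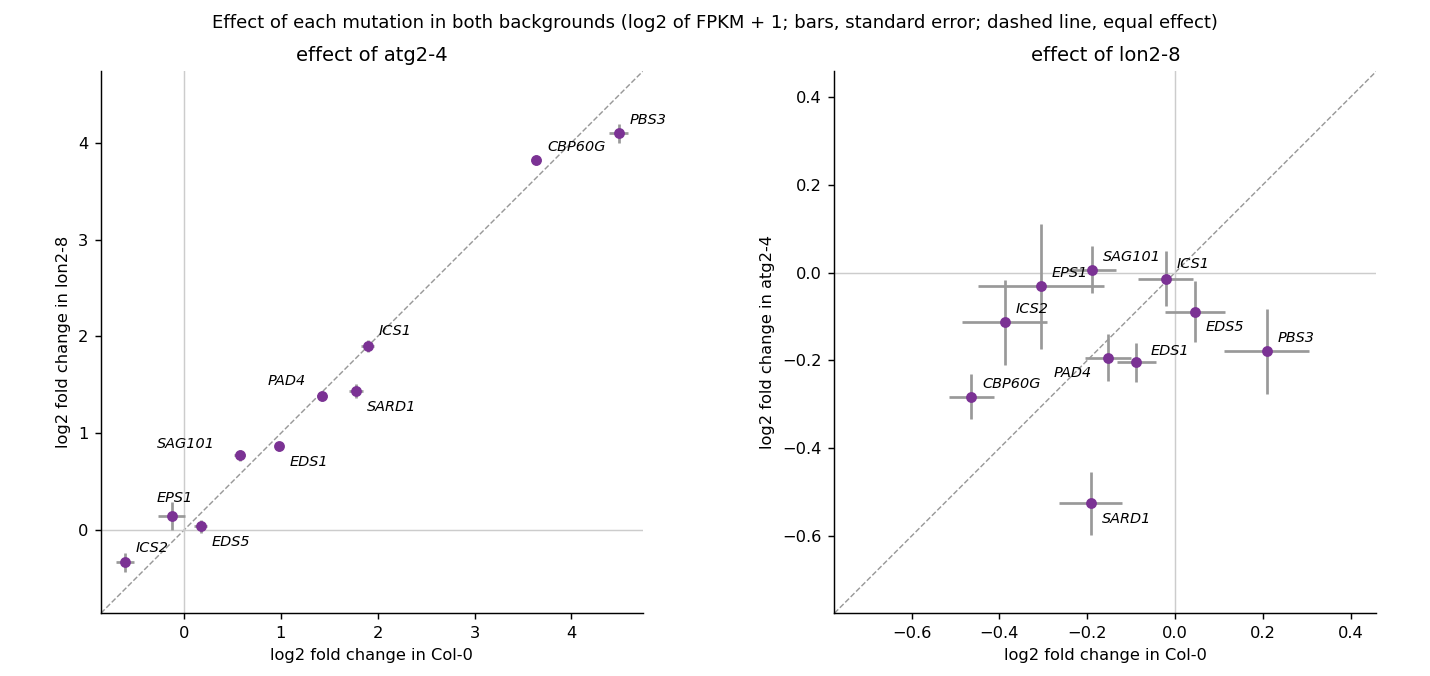
Log2 fold change of each gene for atg2-4 (left) and for lon2-8 (right), with the effect in Col-0 on the horizontal axis and that in the other mutant on the vertical axis. Bars are 1 standard error and the dashed line marks equal effects. The left panel places PBS3 and CBP60G at the top right, and the right panel places SARD1 lowest, at -0.53 in atg2-4 and -0.19 in Col-0.

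The lon2-8 mutation alone gave no gene called higher and 3 called lower, where 23.1% of all tested genes were called, 9.06% higher and 14.1% lower. Those called were CBP60G (-0.46), ICS2 (-0.39) and SAG101 (-0.19, adjusted p = 0.0234). The SAG101 call was lost when libraries were centred on their medians (adjusted p = 0.0722) and without lon2-8 library 1 (0.0534), lon2-8 library 2 (0.0907) or Col-0 library 2 (0.0871). PAD4 changed by -0.15 (adjusted p = 0.0559), EPS1 by -0.31 (0.144) and PBS3 by 0.21 (0.142), none of which passed. The median of the 10 genes was -0.17, beside -0.042 over all tested genes, and 39.2% of all called genes were higher, a share that became 58.7% after median centring.

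Adding lon2-8 to atg2-4 gave no gene called higher and 4 called lower, where 8.88% of all tested genes were called, 4.44% higher and 4.44% lower. SARD1 fell by 0.53, CBP60G by 0.28, EDS1 by 0.20 (adjusted p = 0.0138) and PAD4 by 0.19 (adjusted p = 0.0398) on the log2 scale. The EDS1 call was lost without atg2-4 library 3 (adjusted p = 0.0625) or double-mutant library 3 (0.0635), and each of these left 2 genes called. PAD4 was not called in 11 of 20 alternative settings. PBS3 changed by -0.18 (adjusted p = 0.291), with ranges that did not overlap, 24.1 to 28.0 FPKM in lon2-8 atg2-4 and 28.4 to 32.0 FPKM in atg2-4, and it passed with voom (adjusted p = 0.0168). ICS1 changed by -0.01 and SAG101 by 0.01, with intervals of -0.15 to 0.12 and -0.11 to 0.12.

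The difference between these backgrounds was tested for each gene as an interaction, the effect of lon2-8 in atg2-4 minus its effect in Col-0. SARD1 alone was called, lower, where 13.2% of all tested genes were called, 7.10% higher and 6.08% lower. Differences of -0.39 for PBS3 (adjusted p = 0.0838), 0.20 for SAG101 (0.116), 0.18 for CBP60G (0.123) and 0.27 for ICS2 (0.214) did not pass. ICS1 had a difference of 0.01 with an interval of -0.19 to 0.20. Under voom the PBS3 difference was -0.93 (adjusted p = 0.0375), from 14 to 49 fragments per library in lon2-8 and Col-0. Without lon2-8 library 1 the PBS3 difference was -0.46 (adjusted p = 0.0494) and without Col-0 library 3 it was -0.48 (0.0363).

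**Figure D4:**
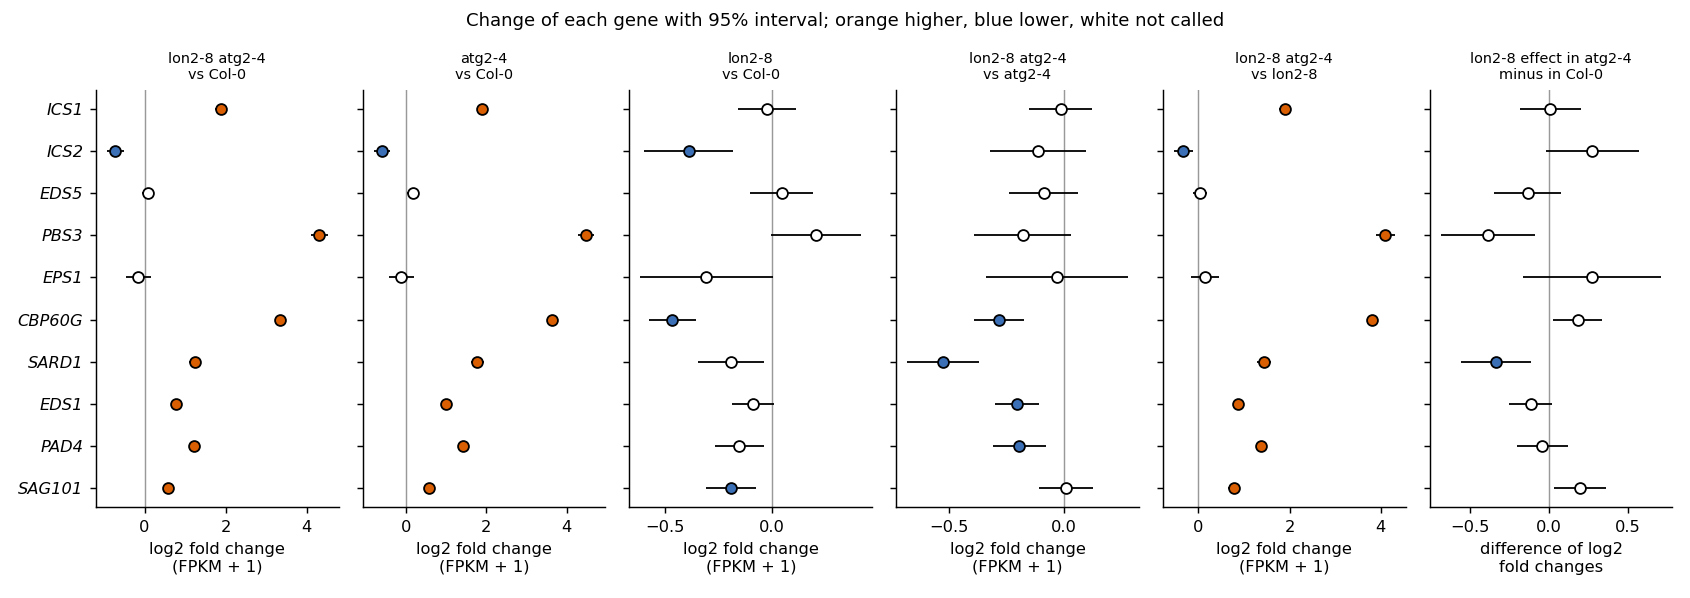
Log2 fold change of each gene on the FPKM + 1 scale with its 95% interval, in 5 comparisons and the interaction, with filled points for genes called at an adjusted p under 0.05 (orange higher, blue lower). The 3 comparisons of a genotype with atg2-4 and one without it share 7 orange points and 1 blue point, and the horizontal scale differs between panels.

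The authors' deposited tables give a test of their own for 4 of these comparisons, whose method is not stated. At a deposited false discovery rate under 0.05, the authors' deposited table for atg2-4 against Col-0 has 8 of the 10 genes higher and 1 lower, and that for lon2-8 atg2-4 against Col-0 also has 8 and 1. The eighth gene higher is EDS5 in both, with a log2 fold change of 0.20 and 0.094 in the authors' deposited table. For lon2-8 against Col-0 the authors' deposited table has 1 gene higher, PBS3 (log2 fold change 0.63), and 3 lower, CBP60G (-0.60), ICS2 (-0.59) and EPS1 (-0.43). For lon2-8 atg2-4 against atg2-4 the authors' deposited table has 5 lower, the 4 genes named above and PBS3 (-0.18). The deposited fold change is the log2 ratio of mean FPKM with no added 1, so it is 6.27 for PBS3 in atg2-4 against Col-0 in the authors' deposited table.

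Of 14 salicylic acid receptor and TGA partner genes, 10 were called higher and 1 lower in atg2-4 against Col-0, where 21.3% of all tested genes were called higher and 27.2% lower. Their median log2 fold change was 0.23. This list and the lists below were also chosen with earlier results of these data known, so their counts beside the background are descriptions. TGA4 was the gene called lower, and TGA1, TGA2 and TGA6 were not called. NPR3, a receptor that restrains the response, averaged 18.2 FPKM in lon2-8 atg2-4, 18.8 FPKM in atg2-4, 8.33 FPKM in lon2-8 and 9.59 FPKM in Col-0. NPR1, the coactivator receptor, was higher by 0.70 and NIMIN-2, an NPR1-interacting protein, by 2.11 in atg2-4. NIMIN1, 1 of the 10, passed the filter only through libraries that carry atg2-4. With lon2-8 alone 2 were higher and 3 lower, beside 9.06% and 14.1% of all tested genes. The 3 lower genes included NPR4 (-0.50, adjusted p = 7.31e-06) and TGA3 (-0.28). In lon2-8 atg2-4 against atg2-4, 1 was higher and 4 lower, beside 4.44% higher and 4.44% lower of all tested genes. NPR4 was again among those lower (-0.32).

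Among 17 regulators of ICS1, CBP60G or SARD1, 9 were called higher and 1 lower in atg2-4 against Col-0, where 48.5% of all tested genes were called, 21.3% higher and 27.2% lower. Their median log2 fold change was 0.14, and the gene called lower was RD26 (-0.62). WRKY46, WRKY70 and WRKY54, given below, had the largest rises of the list. Activators and repressors were not told apart in this list, so the counts carry no direction of regulation. WRKY46 averaged 13.6 FPKM in lon2-8 atg2-4, 16.5 FPKM in atg2-4, 1.78 FPKM in lon2-8 and 1.75 FPKM in Col-0, a log2 fold change of 2.66 in atg2-4 against Col-0. WRKY70 averaged 16.6, 26.5, 2.65 and 6.30 FPKM in the same genotypes. Its log2 fold change was 1.92 in atg2-4 against Col-0 and -1.0 in lon2-8 against Col-0 (adjusted p = 4.92e-07). WRKY54 was higher by 1.89 in atg2-4. NAC019 passed the filter only through libraries that carry atg2-4. With lon2-8 alone none was called higher and 6 were called lower, where 9.06% of all tested genes were called higher and 14.1% lower. Over all genes called there, the share higher went from 39.2% to 58.7% with median centring. In lon2-8 atg2-4 against atg2-4, 1 regulator was called higher, TCP9, and 4 lower, beside 4.44% higher and 4.44% lower of all tested genes.

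Of 12 immune receptors, helpers and close relatives of the EDS1 node, AT3G48080 among them, 8 were called higher and none lower in atg2-4 against Col-0, beside 21.3% and 27.2% of all tested genes. The helper receptors ADR1-L1 (0.76), ADR1-L2 (0.69) and ADR1 (0.35) were among them on the log2 scale. In lon2-8 against Col-0 none was higher and 6 were lower, beside 9.06% and 14.1% of all tested genes, among them NDR1, a membrane protein of receptor signalling (-0.46), and the receptor genes RPS4 (-0.31) and RRS1 (-0.25). The balance of directions over all genes called in this comparison changed with median centring, as given above. NDR1 also fell in lon2-8 atg2-4 against atg2-4 (-0.29, adjusted p = 0.0407).

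Of 17 genes that supply or compete for chorismate, 3 were called higher and 4 lower in atg2-4 against Col-0, with a median log2 fold change of -0.016. That share is near the background, where 21.3% of all tested genes were called higher and 27.2% lower. ASA1, which starts tryptophan synthesis from chorismate, was higher by 0.49 in atg2-4. ECHID and AAE14, enzymes of the phylloquinone route that also draws on isochorismate, were lower at -0.41 and -0.47. Of the 5 genes of the phenylalanine route, 3 were higher and 2 lower, with PAL4 at 32.7 FPKM in lon2-8 atg2-4, 27.6 FPKM in atg2-4, 14.1 FPKM in lon2-8 and 11.9 FPKM in Col-0. PAL4 had the largest log2 fold change of the route in atg2-4 against Col-0 (1.14). The others were PAL1 at 0.43, AIM1 at 0.19, PAL2 at -0.14 and PAL3 at -0.31.

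Of 12 genes that modify salicylic acid or mark its output, 10 were tested and 9 of these were called higher in atg2-4 against Col-0, none lower, beside 21.3% and 27.2% of all tested genes. PR5, which did not pass the filter, averaged 0.772 FPKM in lon2-8 atg2-4, 0.667 FPKM in atg2-4, 0.858 FPKM in lon2-8 and 1.22 FPKM in Col-0. With no filter the list had 9 genes higher and 1 lower. ALD1 passed the filter only through libraries that carry atg2-4, so its call does not weigh as the others do. FMO1, the N-hydroxypipecolic acid synthase, averaged 28.7 FPKM in lon2-8 atg2-4, 34.5 FPKM in atg2-4, 1.22 FPKM in lon2-8 and 1.06 FPKM in Col-0. DLO1, a salicylic acid hydroxylase, averaged 16.4, 21.5, 1.05 and 0.782 FPKM in the same genotypes. It reached 1 FPKM in 2 lon2-8 libraries and in 0 Col-0 libraries, where the filter asked for 3. DLO1 too therefore passed only with libraries that carry atg2-4, and its call has the same limit as that of ALD1. With lon2-8 alone, 5 of these 10 output genes were called higher and none lower, beside 9.06% and 14.1% of all tested genes. PR1, the marker of salicylic acid response, was among them, with 4.93, 5.34 and 4.98 FPKM in lon2-8 atg2-4, 4.77, 3.76 and 4.34 FPKM in atg2-4, 1.93, 1.87 and 1.55 FPKM in lon2-8 and 0.595, 0.301 and 0.350 FPKM in Col-0. Its log2 fold change in lon2-8 against Col-0 was 0.98 ± 0.098 (SE, adjusted p = 1.33e-05), at a low level in every genotype.

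**Figure D5:**
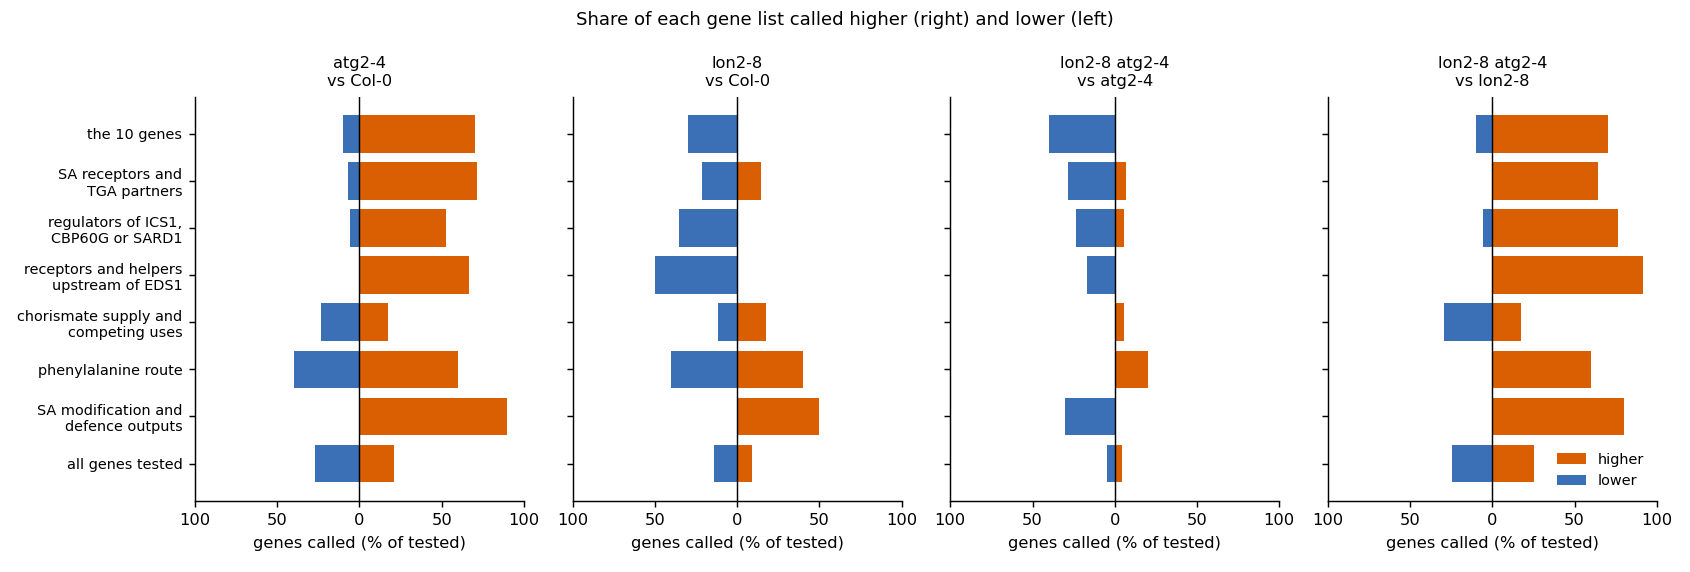
Share of the tested genes of each list called higher (right, orange) and lower (left, blue), in percent, in 4 comparisons, with the 10 genes at the top and all tested genes at the bottom. The output list has 9 of 10 genes higher in atg2-4 against Col-0 and 5 of 10 higher in lon2-8 against Col-0, where the 10 genes have none higher. The 10 genes and the lists were chosen with earlier results of these data known.

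Likeness of pattern was measured as the root mean square difference of log2(FPKM + 1) over the 12 libraries, each gene centred on its own mean. Nearest to ICS1 were AT1G67800 (0.074), AT4G09110 (0.11) and GLN1;4 (0.12). AT4G09110 had 0 to 4 fragments in each lon2-8 and Col-0 library, so its closeness rests on the added 1 and not on a like fold. AT1G67800 averaged 24.95 FPKM in lon2-8 atg2-4, 25.4 FPKM in atg2-4, 6.33 FPKM in lon2-8 and 6.00 FPKM in Col-0. Nearest to CBP60G were AT1G78780 (0.21), WRKY59 (0.21) and BAP2 (0.22), which lie farther away than the neighbours of ICS1. WRKY59 likewise had 0 to 7 fragments and BAP2 5 to 17 fragments in each lon2-8 and Col-0 library. Nearest to PAD4 were RSH2 (0.066), AT1G25400 (0.084) and AT1G44770 (0.085).

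The 12 libraries held 14481170 to 18690658 fragments, and 19705 to 19923 genes reached 1 FPKM in each. Leaf and root markers were expressed, and the flower markers AG, AP3 and SEP3 were at or near 0, at most 0.021, 0.192 and 0.419 FPKM. The summed FPKM of 5 root markers was 837 to 875 in lon2-8 atg2-4, 775 to 818 in atg2-4, 1872 to 2017 in lon2-8 and 1253 to 1292 in Col-0, mostly from PYK10. In atg2-4 the means of PYK10, COBL9 and SCR were below those in Col-0 and the means of CASP1 and PHT1;1 above. The summed FPKM of 4 leaf markers was 16209 to 16816 in lon2-8 atg2-4, 15705 to 16881 in atg2-4, 17029 to 17843 in lon2-8 and 17712 to 18143 in Col-0. The part of these markers in the results was not tested. In whole seedlings a change in the number of expressing cells and a change in RNA per cell cannot be told apart.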

How the data were processed

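The authors deposited FPKM per gene for 12 libraries, 3 for each of 4 genotypes, and the mean FPKM of each genotype. Per the submitters' processing notes the tools were STAR 2.5.1a and Salmon 0.8.2, featureCounts 1.4.6-p5 from Subread, bcl2fastq, limma and edgeR. Their roles, the strand setting and the build are not stated in those notes. Per the file headers, the deposited comparison tables hold a score, a p-value, a false discovery rate and a log2 fold change per gene. The fold change equals the log2 ratio of the authors' mean FPKM.

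FPKM values were whole multiples of 1 fragment per library for 26093 of 26093 genes, within 0.01 fragments, with relative depth read from 3520 genes under 0.3 FPKM on average. Fragments were recovered on this basis for the count model (voom). Replicates differed by more than counting noise, with a chi-square per degree of freedom of 1.90 to 2.50, so no library was counted as a repeat. Where nothing shows separate cultures, p-values measure only the spread between these libraries. Precision is limited by 3 libraries per genotype and, at low FPKM, by fragment number.

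Log2(FPKM + 1) was fitted in limma 3.58.1 (R 4.3.3), with all 12 libraries in 1 model, trend moderation and a mean per genotype. Tests were two-sided over the 20662 genes that reached 1 FPKM in 3 or more libraries, with Benjamini-Hochberg adjustment and a threshold of 0.05. The fit was tested on simulated data. The 10 genes and 6 further lists were chosen with earlier results of these data known. Named were the 10 genes, up to 4 genes of smallest adjusted p per list in each of 4 comparisons, LON2 and ATG2, the EDS1 neighbour AT3G48080, and the 3 genes nearest in pattern to ICS1, CBP60G and PAD4. NIMIN1, NAC019, RD26, GIP2, CFM4, PR5, TGA1, TGA2, TGA4, TGA6 and, in the interaction, PR2, DMR6 and AT5G52810 are given as exceptions, chosen after their values were seen. BSMT1 was not among the genes of the expression table, and PR5 did not pass the filter. All 26093 identifiers matched RefSeq, assembly TAIR10.1, the source of names and sequences. Python 3.11.15 was used with pandas 2.3.3, numpy 2.4.6 and, for plots, matplotlib 3.10.9.

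Alternatives were pseudocounts of 0.1 and 5, no filter, median centring, no trend, voom, a replicate block, a fit of the compared groups alone, and leaving out each library.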

Additional observations from a re-analysis of the deposited data

Results flagged for a closer look

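The effect of lon2-8 differed between the atg2-4 and the Col-0 background, by limma's interaction test, for 1 of the 10 genes. It also differed for 17 genes of the further lists. Those lists had 14 receptor and partner genes, 17 regulators, 12 genes near the EDS1 node, 17 chorismate genes, 5 phenylalanine-route genes and 10 output genes tested. Of all tested genes, 13.2% were called, 7.10% higher and 6.08% lower. Each value is the effect in atg2-4 minus the effect in Col-0, on the log2 scale. SARD1 had -0.33.

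Among receptors and partners of salicylic acid, NIMIN-3 had 0.41 and NIMIN-2 had -0.81. Among the regulators of ICS1, CBP60G or SARD1, TCP9 had 0.48, WRKY70 had 0.36, EIL1 had 0.30 and CBP60A had 0.25. These 4 regulators were lower with lon2-8 in Col-0. That effect is subtracted in the interaction, so their positive values are partly built in. With lon2-8 added to atg2-4, WRKY70 was still lower (-0.64) and TCP9 was higher (0.30). EIL1 (0.031) and CBP60A (-0.00047) were not called there.

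Near the EDS1 node, AT5G66900 had 0.34, RPS4 had 0.34 and AT3G48080, the neighbour of EDS1, had -0.35. ASA1, the tryptophan-route enzyme, had 0.25.

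Of the 10 tested genes of the output list 7 were called, all with a negative value, where 6.08% of all tested genes were called lower. ALD1 had -1.04, but it passed the filter only through libraries that carry atg2-4 and averaged 0.415 FPKM in lon2-8 and 0.257 FPKM in Col-0. DLO1 also met the filter only with libraries that carry atg2-4. PR2 had -0.79, PR1 had -0.77, DLO1 had -0.57, UGT76B1 had -0.52, DMR6 had -0.42 and AT5G52810 had -0.41. With lon2-8 in Col-0, PR1 (0.98), PR2 (0.51), UGT76B1 (0.54) and AT5G52810 (0.36) were called higher. That effect is subtracted in the interaction, so their negative values are partly built in. With lon2-8 added to atg2-4 they were not called (0.21, -0.28, 0.027 and -0.051). ALD1 (-0.87), DLO1 (-0.37) and DMR6 (-0.30) were called lower there. UGT76B1, a glucosyltransferase, averaged 37.8 FPKM in lon2-8 atg2-4, 37.2 FPKM in atg2-4, 39.1 FPKM in lon2-8 and 26.5 FPKM in Col-0. All 9 mutant libraries lay above every Col-0 library.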

How the results depend on the processing

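Of 1190 values of the 10 genes under 20 alternative settings (19 for the interaction), 1125 kept their direction and their side of the threshold, 30 lost a call, 13 gained one and 22 changed sign, and each change of sign was of a value that had not been called. Leaving out 1 library moved the number of genes called between 8 and 9 in atg2-4 against Col-0, 2 and 3 in lon2-8 against Col-0, 8 and 8 in lon2-8 atg2-4 against Col-0, 2 and 4 in lon2-8 atg2-4 against atg2-4, 7 and 8 in lon2-8 atg2-4 against lon2-8, and 0 and 2 in the interaction. With a pseudocount of 0.1, 5 genes were called in lon2-8 against Col-0, SARD1 and PAD4 being added. In the interaction 0 genes were called without the filter and 2 with voom, PBS3 and CBP60G in place of SARD1. The cause was not tested. Median centring changed the sign of ICS1 in lon2-8 against Col-0 (0.026), in lon2-8 atg2-4 against atg2-4 (0.00084) and in the interaction (-0.025), and of EDS5 in lon2-8 atg2-4 against lon2-8 (-8.9e-05), and a pseudocount of 5 that of CBP60G in the interaction (-0.019). Leaving out 1 library gave ICS1 -0.067 to 0.022 in lon2-8 against Col-0, -0.069 to 0.026 in lon2-8 atg2-4 against atg2-4 and -0.048 to 0.053 in the interaction. It gave EPS1 -0.23 to 0.0059 in atg2-4 against Col-0 and -0.17 to 0.059 in lon2-8 atg2-4 against atg2-4, and SAG101 -0.052 to 0.039 in the last comparison. Of 714 list counts, 638 stayed within 1.5 times the count given and 76 did not. Centring moved 53.8% higher among all genes called in the interaction to 42.4%. Same-numbered libraries showed little correlation once the mean of each genotype was removed: over 18 pairs r was -0.057 to 0.049. Of 12 libraries, 6 correlated best with their own number, a count that was not tested. With the replicate block the counts were 8, 3, 8, 4, 8 and 1, in the order of comparisons above. Depth limits precision for PBS3 in lon2-8 and Col-0, at 14 to 49 fragments per library.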
